A study of Mus musculus with 6 samples.

Results

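This account follows 37 genes of the NF-κB pathway and its feedback in BV2, an immortalized mouse line of microglia, which are macrophages residing in the brain. The members are a list of 37 gene symbols that was chosen with earlier results of these data known, and not by a threshold on any value. All 37 were matched to at least 1 probe through the probe's transcript accession, by 51 of the 39429 probes on the array. The probes stood for 32451 genes or unnamed transcripts in all, of which 29759 were bright enough to be tested, all 37 members among them, and the brightest probe stood for a gene.

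Cultures were given recombinant murine IL-4 at 10 ng/ml for 24 hr (3 samples) or PBS for 24 hr (3 samples), in plates coated with poly-L-lysine. The total RNA of each sample was labelled with Cy3 and hybridised to a one-colour Agilent array of its own. The series' design text calls the controls untreated, whereas each sample is labelled as PBS, the name kept below. The description of every sample also mentions human blood, which goes against its organism, cell line and source labels, and the mouse line is taken as the source here. In macrophages IL-4 brings about the state called M2, and the study's title names M2 polarization of microglia. Nothing in the labels tells separate cultures from repeats of 1 culture. A p-value here therefore sets the group difference only against the spread among these samples, which may be technical.

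NF-κB is a family of dimeric transcription factors that IκB proteins hold in the cytoplasm. Signals from Toll-like, interleukin-1 and TNF receptors pass through adaptors, IRAK kinases and TRAF ubiquitin ligases to the TAK1 and IKK kinases, which mark the IκB proteins for destruction and set the dimers free. In microglia and other macrophages the freed dimers switch on cytokine, chemokine and survival genes. They also switch on genes for their own inhibitors, such as IκBα and A20, which closes a negative feedback loop.

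RefSeq promoter windows of the assembly GRCm38.p6, 250 bases before and 50 after a gene's start, were at hand for 31 of the 37 genes, in 41 windows. The NF-κB consensus, a motif of 10 bases searched on both strands, lay in 15 of these 41 windows (36.6%), against 8.46% of all 32851 windows of the same length, and in 12 of the 31 genes. The STAT6 consensus with a spacer of 4 bases, the site of the factor that IL-4 activates, was in 2 of the 41 windows (4.88%), against 6.95% of all windows. The STAT consensus with a spacer of 3 bases was in 6 of the 41 (14.6%), against 8.3% of all windows. Several windows can belong to 1 gene, so these shares are descriptions and no match was tested as a binding site.

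The 130 bases before the start are shown for 7 members and for Il6, an inflammatory target gene, to show the κB motif in genes of inhibitors, subunits and the kinase on which the comparison turns. Capitals mark matches to the NF-κB consensus, and each sequence reads 5′ to 3′ on the gene's own strand.
Nfkbia (chr12:55492648-55492777, minus strand): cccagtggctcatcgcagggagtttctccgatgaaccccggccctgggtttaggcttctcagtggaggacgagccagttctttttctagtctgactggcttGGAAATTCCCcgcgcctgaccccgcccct
Nfkbie (chr17:45555570-45555699, plus strand): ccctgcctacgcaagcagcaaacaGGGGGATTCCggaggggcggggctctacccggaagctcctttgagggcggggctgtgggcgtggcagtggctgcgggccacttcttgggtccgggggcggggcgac
Tnfaip3 (chr10:19015411-19015540, minus strand): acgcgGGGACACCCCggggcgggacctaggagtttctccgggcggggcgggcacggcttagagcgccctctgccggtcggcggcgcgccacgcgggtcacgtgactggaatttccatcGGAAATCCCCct
Tnip1 (chr11:54962941-54963070, minus strand): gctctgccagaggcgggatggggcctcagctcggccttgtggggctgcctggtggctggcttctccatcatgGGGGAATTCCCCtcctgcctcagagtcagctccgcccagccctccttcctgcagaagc
Rel (chr11:23770970-23771099, minus strand): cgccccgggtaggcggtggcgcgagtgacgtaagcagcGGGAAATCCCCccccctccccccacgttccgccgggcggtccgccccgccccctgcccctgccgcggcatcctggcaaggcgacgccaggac
Nfkb2 (chr19:46304607-46304736, plus strand): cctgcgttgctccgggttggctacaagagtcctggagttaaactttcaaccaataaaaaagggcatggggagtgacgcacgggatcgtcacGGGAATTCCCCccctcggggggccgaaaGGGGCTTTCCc
Irak1 (chrX:74023922-74024051, minus strand): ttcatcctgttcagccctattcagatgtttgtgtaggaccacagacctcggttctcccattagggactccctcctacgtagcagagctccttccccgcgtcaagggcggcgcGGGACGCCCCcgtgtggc
Il6 (chr5:30012984-30013113, plus strand): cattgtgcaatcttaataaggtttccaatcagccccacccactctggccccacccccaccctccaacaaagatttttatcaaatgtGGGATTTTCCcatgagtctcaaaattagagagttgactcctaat

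In the Nfkbia window the match starts 29 bases before the start of the gene, and in the Il6 window 44 bases before it. The Tnfaip3 window shown has matches at 125 and 12 bases, and Tnip1 has overlapping matches from 58 bases onwards that read GGGGAATTCCCC together. Tnfaip3 has another window, which holds no NF-κB match. Its shown window also has a STAT6 match at 242 bases, beyond the bases printed. RefSeq gives Irak1 a pair of windows whose starts lie close together, and the match is in both of them.

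Every array gave a usable measurement of these genes. Between 34665 and 38657 of the 39429 probes per array were well above background, and no spot was saturated. All 37 members were well above background on all 6 arrays, and none had a value left out. By the scanner's records slide 1 carried every IL-4 array together with the first PBS array, and slide 2 carried the other 2 PBS arrays, so part of the PBS group differs from the IL-4 group in slide as well as in treatment. All 12 markers of macrophages and microglia were well above background on all arrays, and their summed signal, as log2 over each array's 75th percentile, was 5.69 to 5.83 with IL-4 and 5.86 to 6.20 with PBS. Of these 12 genes, 7 reached the 75th percentile on average, and the median level per gene was 0.49. Their mean levels ran from -2.89 for Cx3cr1, -2.43 for Spi1 and -1.51 for Aif1 up to 4.42 for Trem2. As for other cell types, the markers of T and NK cells (5 of 6 well above background on all arrays) stood at 3.17 to 3.26 with IL-4 and 2.15 to 2.96 with PBS on the same scale. Those of neurons (5 of 6) stood at 1.07 to 1.30 with IL-4 and 0.73 to 0.95 with PBS, and those of oligodendrocytes (6 of 6) at 1.82 to 1.99 with IL-4 and 0.99 to 1.77 with PBS. Most genes of these 3 lists were dim: 2 of 6, 1 of 6 (Snap25) and 1 of 6 (Mog) reached the 75th percentile on average, and the median level per gene was -1.72 for T and NK cells, -3.44 for neurons and -2.92 for oligodendrocytes. The summed levels of these lists and of the macrophage list did not overlap between the groups, whereas those of astrocytes, B cells, fibroblasts, endothelium and epithelium did. Astrocyte markers reached higher sums than those of T and NK cells, at 3.26 to 4.15 with IL-4 and up to 3.88 with PBS. So did endothelial markers, at 3.32 to 3.74 with IL-4 and 3.33 to 3.89 with PBS. In each of these lists 1 gene reached the 75th percentile on average, Aqp4 (3.63) and Pecam1 (3.44). The lowest astrocyte sum with PBS, -0.98, lacks Aqp4, whose value was left out on that array, so it is not a measured fall. The part of any list in the results was not tested. Each value is an average over a sample, in which fewer cells of a kind and less RNA per cell cannot be told apart.

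The comparison asked whether IL-4 changed the mRNA of the pathway's own components. Of the 37 members, Irak1 fell, 0 rose and 36 did not pass the test (limma, Benjamini-Hochberg adjusted p under 0.05 over all tested genes). Over all tested genes 3.34% were called, 0.803% higher and 2.54% lower with IL-4, so 1 of 37 members (2.7%) is close to the share among all genes. At an unadjusted p under 0.05 there were 2 members higher and 8 lower, 27% of the list, against 34.1% of all genes, 16.6% higher and 17.5% lower. The groups did not overlap for 16 members, 5 higher and 11 lower with IL-4 (43.2%, against 38.5% of all genes, 18.7% higher and 19.8% lower). The median log2 difference, IL-4 minus PBS, was -0.13 over the members and -0.05 over all tested genes, and 27 of the 37 were negative. The split of all calls was 239 higher and 756 lower here. With normexp background correction it was 2016 higher and 2015 lower with the 75th percentile, and 967 higher and 2092 lower with quantiles. The 95% interval of every member lay within a 2-fold change in either direction.

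Within slide 1, where the 3 IL-4 arrays can be set against PBS replicate 1 alone, the median difference of the members was -0.01 (0.01 over all tested genes), with 18 positive and 19 negative. The largest difference there was -0.52, for Map3k8. When slide was added as a block, 0 members rose and 0 fell, against 0.0336% higher and 0.0302% lower among all genes (0.0638% called), and the smallest adjusted p of a member was 0.23, for Irak1 (limma). PBS replicate 1 was lower than the mean of PBS replicates 2 and 3 for 31 of the 37 members (83.8%, against 60.2% of all genes), and the median of that log2 difference was -0.21 (-0.08 over all tested genes). On slide 1 it lay below all 3 IL-4 arrays for 13 members and above all of them for 12, against 30.5% and 25.5% of all genes. Without PBS replicate 1, 3 members were called higher and 13 lower, while 42.6% of all genes were called, 19.6% higher and 23% lower. Without any other array, in turn, no member was called (smallest adjusted p 0.14 to 0.17, limma). Those fits called few genes of any kind, 0 to 4 higher and 0 to 3 lower of 29759 tested.

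**Figure D1:**
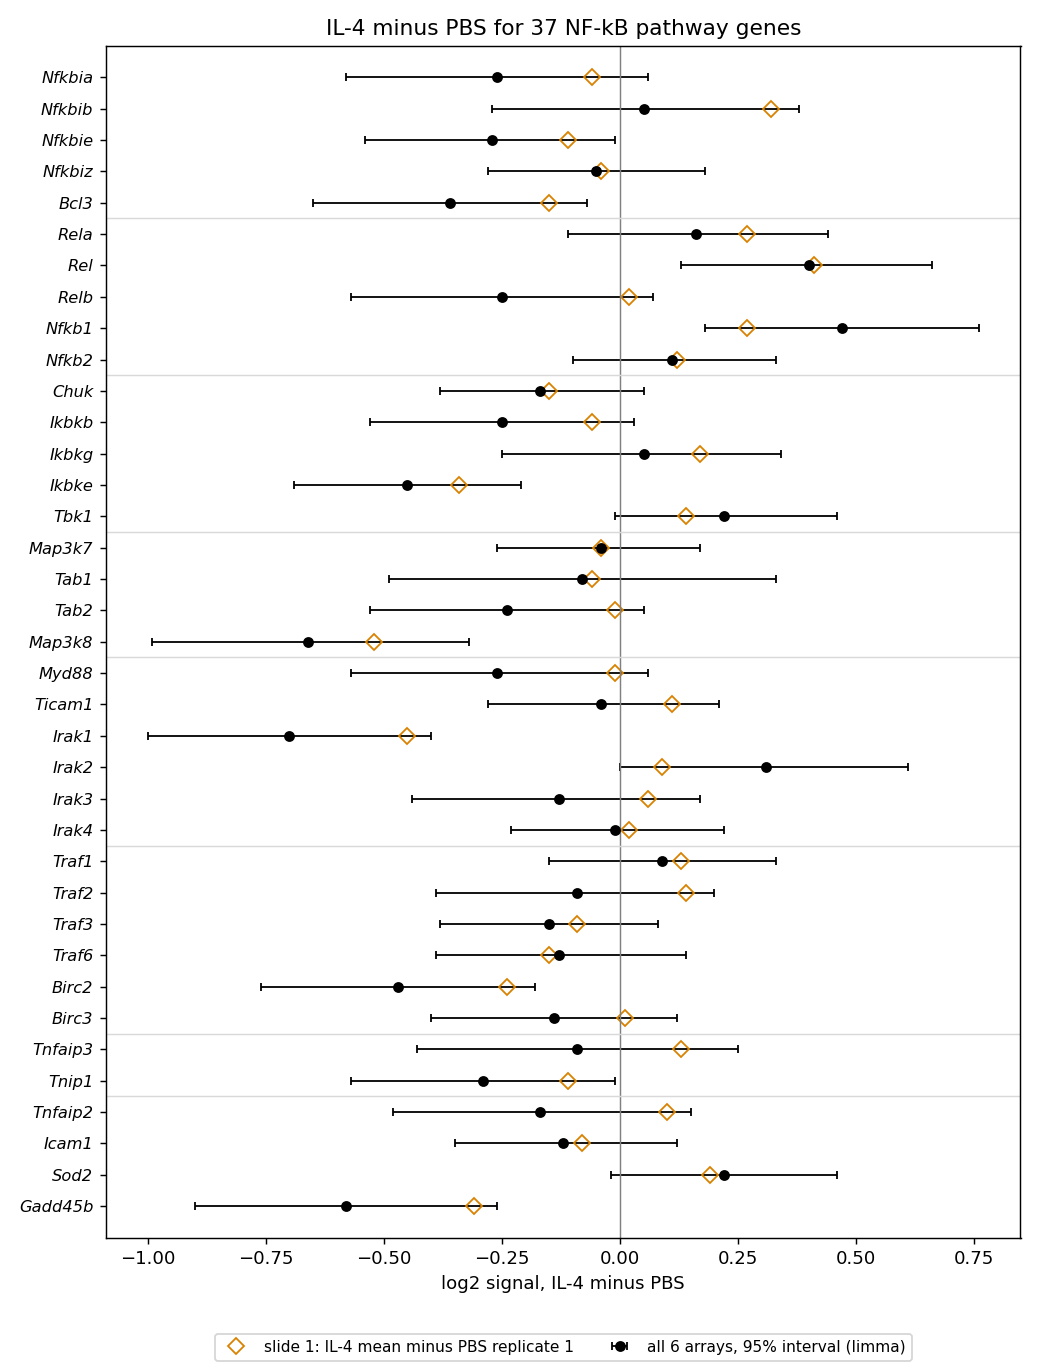
Log2 difference in signal, IL-4 minus PBS, for the 37 genes ordered by role, with grey lines between the roles. Black points are the estimates over all 6 arrays with 95% intervals from limma, and open diamonds are the IL-4 mean minus PBS replicate 1 within slide 1. The lowest estimate is that of Irak1 at -0.70 and the highest that of Nfkb1 at 0.47, and 25 of the 37 diamonds lie nearer to 0 than their black points.

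Of the 5 IκB genes, whose products hold or steer the dimers, 0 passed the test. Nfkbia encodes IκBα, the inhibitor that is degraded and remade within each round of activation. Every level given here is a log2 signal minus the array's own 75th percentile. That of Nfkbia was -0.28, -0.40 and -0.07 on IL-4 arrays 1 to 3, against -0.19, 0.01 and 0.20 on PBS arrays 1 to 3. PBS replicate 1 lay within the IL-4 values, so the groups overlapped. The difference was -0.26 ± 0.14 (SE; 95% interval -0.58 to 0.06, adjusted p = 0.22, limma), and -0.06 within slide 1.

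Nfkbie, encoding IκBε, which restrains NF-κB with a delay, had levels of -0.53, -0.60 and -0.69 with IL-4, against -0.50, -0.29 and -0.20 with PBS. All IL-4 values were below all PBS values, the nearest of them PBS replicate 1. The difference was -0.27 ± 0.11 (adjusted p = 0.14, limma) and shrank to -0.11 within slide 1. Bcl3, a nuclear IκB that pairs with the p50 and p52 subunits, had levels of -1.26, -1.16 and -1.08 with IL-4, against -1.02, -0.64 and -0.77 with PBS. These groups did not overlap either, and the difference of -0.36 ± 0.13 did not pass (adjusted p = 0.096, limma). Within slide 1 it was -0.15.

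Nfkbib, encoding IκBβ, and Nfkbiz, encoding the nuclear co-activator IκBζ, differed by 0.05 ± 0.14 and -0.05 ± 0.10. Nfkbib had levels of 1.15, 0.94 and 1.12 with IL-4, against 0.75, 1.16 and 1.16 with PBS. PBS replicate 1 stood apart from the other PBS arrays, and within slide 1 the difference of Nfkbib was 0.32. Nfkbiz spanned only -2.48 to -2.38 with IL-4 and -2.47 to -2.31 with PBS.

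A20, encoded by Tnfaip3, edits ubiquitin chains on the upstream signalling complexes and is a well known brake of the pathway. Tnfaip3 had levels of 2.58, 2.37 and 2.21 with IL-4, against 2.26, 2.70 and 2.47 with PBS, and the groups overlapped. Its difference was -0.09 ± 0.15 (95% interval -0.43 to 0.25, adjusted p = 0.69, limma), and 0.13 within slide 1.

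The gene of the A20 partner ABIN1, Tnip1, was measured by a pair of probes that pointed opposite ways. The probe that stood for the gene had levels of 2.99, 2.88 and 3.02 with IL-4, against 3.07, 3.43 and 3.24 with PBS, a difference of -0.29 ± 0.12 (adjusted p = 0.14, limma). The other probe averaged 3.00 with IL-4 and 2.78 with PBS, a difference of 0.22 ± 0.12. Both are annotated to the same transcript, so the direction of Tnip1 is not settled. In the counts of members it stands as lower, through the probe that stood for the gene. Within slide 1 the probes differed by -0.11 and 0.15.

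Of the genes of the DNA-binding subunits, 0 of 5 passed the test, 4 had positive differences and 1 a negative one. Rel, encoding c-Rel, a subunit prominent in immune cells, had levels of -0.26, -0.43 and -0.18 with IL-4, against -0.70, -0.58 and -0.79 with PBS. Every IL-4 array was above every PBS array, and PBS replicate 1 lay between the other PBS arrays. The difference of 0.40 ± 0.11 (95% interval 0.13 to 0.66) missed the threshold (adjusted p = 0.067, limma). Within slide 1 it was 0.41, nearly the same, and with slide as a block its adjusted p was 0.41.

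Nfkb1 encodes the precursor of the p50 subunit. On its brightest probe the levels were 2.74, 2.50 and 2.53 with IL-4, against 2.32, 2.02 and 2.03 with PBS, again with no overlap. The difference was 0.47 ± 0.13 (adjusted p = 0.063, limma) and 0.27 within slide 1. Another probe of the same transcript averaged -1.97 with IL-4 and -1.76 with PBS, a difference of -0.21 ± 0.11.

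Rela, encoding the main activating subunit p65, had levels of 4.26, 4.11 and 4.30 with IL-4, against 3.95, 4.24 and 3.99 with PBS. The difference was 0.16 ± 0.12 (adjusted p = 0.35, limma) with overlapping groups, and 0.27 within slide 1. Nfkb2, the precursor of p52 in the non-canonical pathway, had levels of -1.02, -1.09 and -1.01 with IL-4, against -1.16, -1.10 and -1.19 with PBS. These groups all but met without overlapping, and the difference was 0.11 ± 0.09 (adjusted p = 0.41, limma). Relb, the usual partner of p52, had levels of -1.55, -1.75 and -1.67 with IL-4, against -1.68, -1.28 and -1.27 with PBS, a difference of -0.25 ± 0.14 that was 0.02 within slide 1. A second probe of Relb differed by 0.07 ± 0.10. Within slide 1 the brightest probes of all 5 subunit genes were positive, at a median of 0.27. Those of 4 of the 5 IκB genes were negative, at a median of -0.06. Among all tested genes 15251 were positive there and 14500 negative. Some of these values were near 0, such as 0.02 for Relb and -0.04 for Nfkbiz. The second probe of Nfkb1 was negative within slide 1, at -0.05. The difference between these role groups was not tested.

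**Figure D2:**
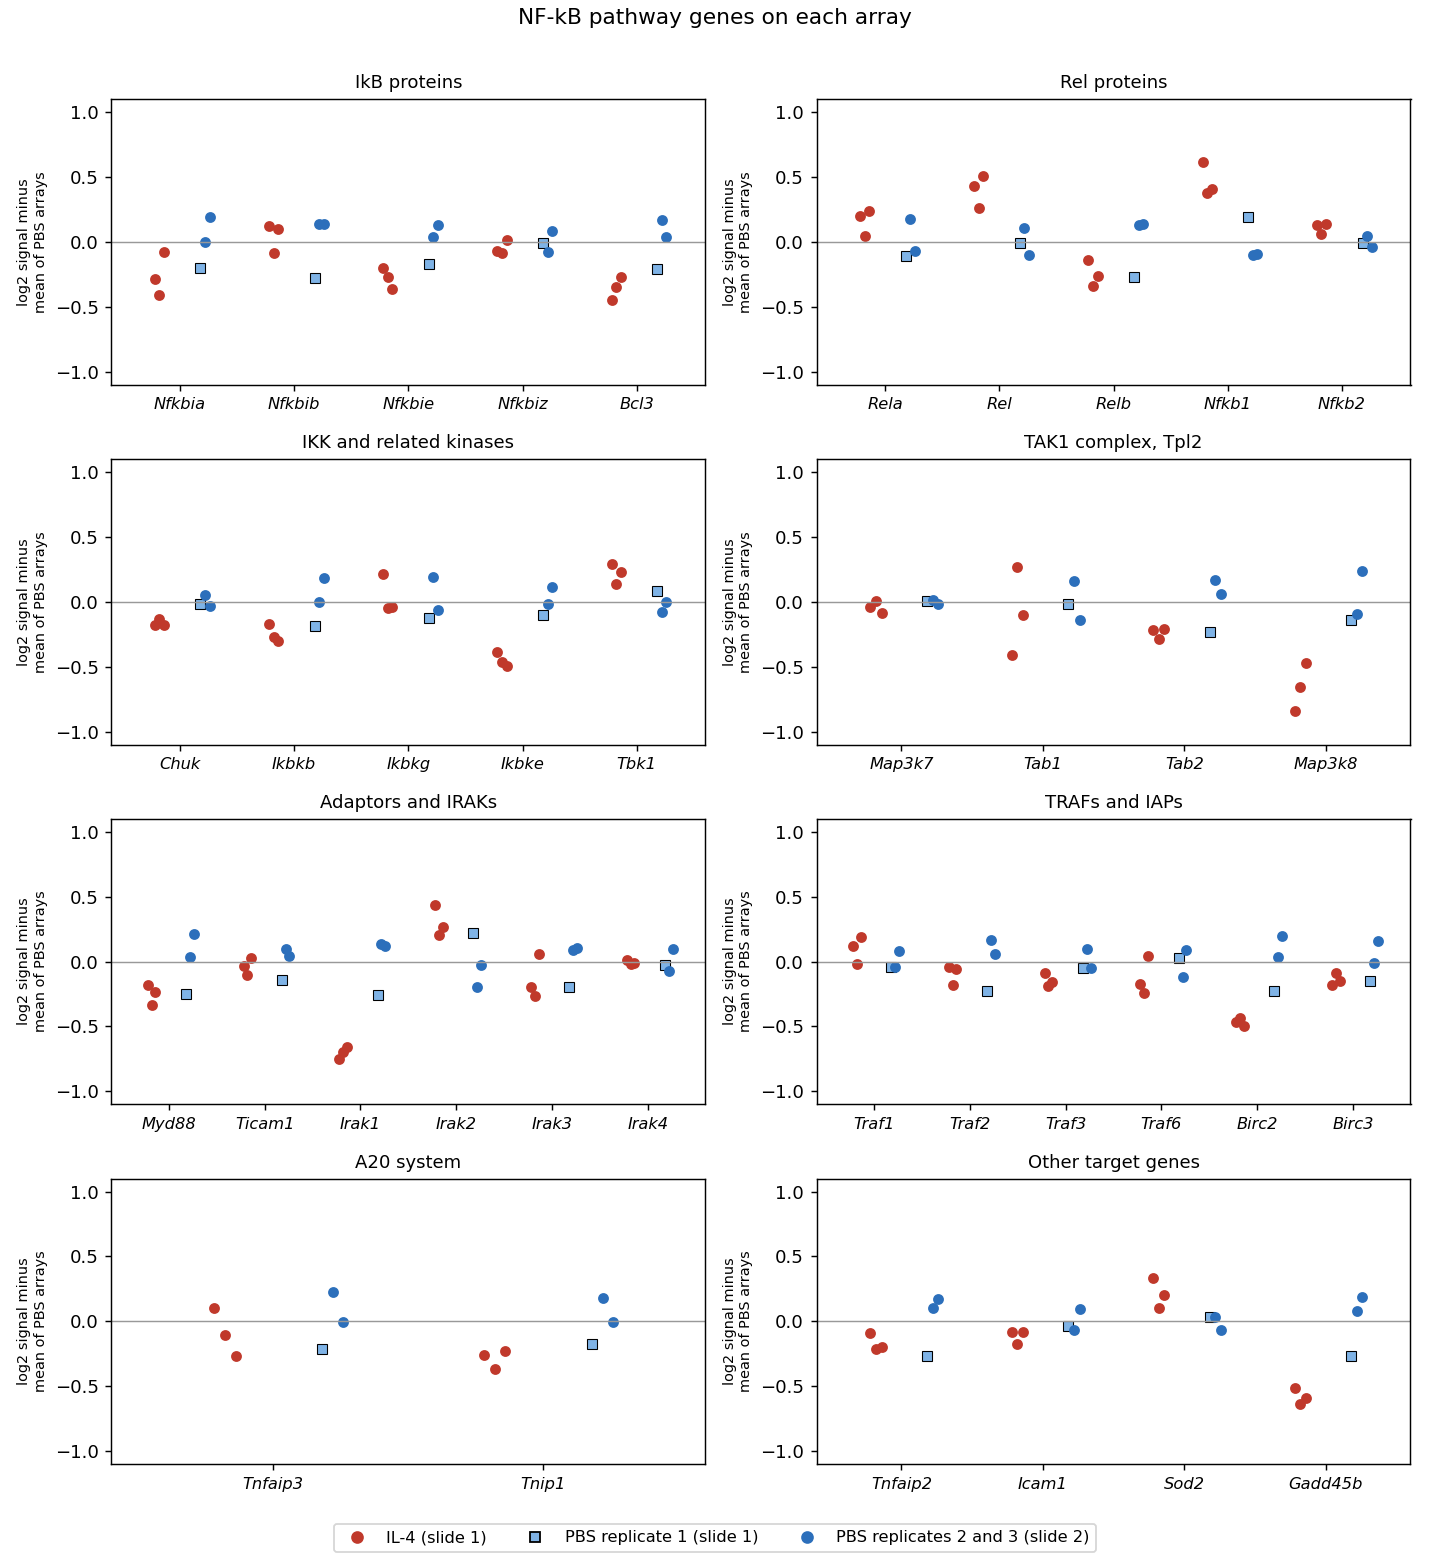
Log2 signal of each gene on each array, shown relative to the mean of the PBS arrays for that gene, in panels by role. Red points are the 3 IL-4 arrays, light squares PBS replicate 1 and dark blue points PBS replicates 2 and 3. For Irak1, Ikbke, Map3k8, Birc2 and Gadd45b the red points lie below all PBS points, and the light square is the PBS point nearest to them.

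Among the kinases that release the dimers, the canonical IKK genes showed small differences. Chuk, encoding IKKα, had levels of 2.73, 2.78 and 2.73 with IL-4, against 2.89, 2.96 and 2.88 with PBS. The groups were tight and did not overlap, yet the difference of -0.17 ± 0.09 did not pass (adjusted p = 0.24, limma). Ikbkb, encoding IKKβ, the kinase that phosphorylates IκBα, had levels of -1.87, -1.97 and -2.00 with IL-4, against -1.88, -1.70 and -1.51 with PBS. The groups overlapped through PBS replicate 1. Its difference was -0.25 ± 0.12 over all arrays and -0.06 within slide 1. Ikbkg, the regulatory subunit NEMO, differed by 0.05 ± 0.13, with levels of -1.18 to -0.92 with IL-4 and -1.26 to -0.94 with PBS.

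The genes of the IKK-related kinases, which act mainly on interferon regulatory factors, had differences of opposite sign that did not pass. Ikbke had levels of -2.89, -2.97 and -3.00 with IL-4, against -2.61, -2.52 and -2.39 with PBS. The IL-4 arrays were all lower, with a difference of -0.45 ± 0.10 (95% interval -0.69 to -0.21, adjusted p = 0.053, limma), and -0.34 within slide 1. Tbk1 had levels of -0.17, -0.32 and -0.23 with IL-4, against -0.38, -0.54 and -0.46 with PBS. The IL-4 arrays were all higher, with a difference of 0.22 ± 0.10 (adjusted p = 0.16, limma), and 0.14 within slide 1.

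Map3k8 encodes Tpl2, a kinase that the p50 precursor holds inactive and that couples IKK to the ERK pathway. Its levels were -3.44, -3.25 and -3.07 with IL-4, against -2.74, -2.69 and -2.36 with PBS. All IL-4 arrays were lower, with a difference of -0.66 ± 0.14 (95% interval -0.99 to -0.32), which just missed the threshold (adjusted p = 0.051, limma). Within slide 1 the difference was -0.52 and its adjusted p with slide as a block 0.41.

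The genes of the TAK1 complex, which activates IKK, did not pass. Map3k7, encoding TAK1 itself, had levels of 0.20 to 0.29 with IL-4 and 0.27 to 0.30 with PBS, a difference of -0.04 ± 0.09. Its other probes differed by 0.11 ± 0.10 and -0.23 ± 0.11. Tab1, an adaptor of TAK1, varied most among the IL-4 arrays, at -0.06, 0.62 and 0.25, against 0.33, 0.51 and 0.21 with PBS, and differed by -0.08 ± 0.18. Tab2, which binds ubiquitin chains for TAK1, differed by -0.24 ± 0.13 over all arrays and by -0.01 within slide 1, since PBS replicate 1 (0.91) lay with the IL-4 arrays (0.92, 0.85 and 0.93) and not with the other PBS arrays (1.31 and 1.20).

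Irak1, a kinase that carries signals from MYD88 to TRAF6, was the member that fell. On its brightest probe the levels were -0.82, -0.77 and -0.73 with IL-4, against -0.33, 0.06 and 0.05 with PBS. The IL-4 arrays were tightly grouped below all PBS arrays, and PBS replicate 1 was the PBS array nearest to them. The log2 fold change was -0.70 ± 0.13 (95% interval -1.0 to -0.40, adjusted p = 0.039, limma), so the signal was 1.63-fold lower with IL-4. Within slide 1 the difference was -0.45 and the call was lost with slide as a block (adjusted p = 0.23, limma). The other probes of Irak1 differed by -0.34 ± 0.14 and -0.25 ± 0.11 over all arrays, and by -0.08 each within slide 1, and with the mean of the gene's probes Irak1 was not called (-0.43, adjusted p = 0.072, limma).

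The other IRAK genes did not pass. Irak2, a kinase of sustained Toll-like receptor signalling, had levels of 2.35, 2.12 and 2.18 with IL-4, against 2.13, 1.72 and 1.89 with PBS. Its difference was 0.31 ± 0.13 (adjusted p = 0.15, limma) and 0.09 within slide 1, and another probe gave -0.10 ± 0.10. Irak3, encoding the inhibitory IRAK-M, had levels of -4.17 to -3.85 with IL-4 and -4.10 to -3.80 with PBS, a difference of -0.13 ± 0.13. Irak4, the kinase that starts the cascade, differed by -0.01 ± 0.10, with levels of -2.00 to -1.97 with IL-4 and -2.05 to -1.88 with PBS.

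Of the adaptors, Myd88, used by most Toll-like receptors and the interleukin-1 receptor, had levels of 1.61, 1.45 and 1.55 with IL-4, against 1.54, 1.82 and 2.00 with PBS. The difference was -0.26 ± 0.14 (adjusted p = 0.21, limma) and -0.01 within slide 1. Ticam1, encoding TRIF, the adaptor of the MYD88-independent branch, differed by -0.04 ± 0.11, with levels of -2.15 to -2.02 with IL-4 and -2.19 to -1.95 with PBS.

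Several TRAF proteins and the inhibitor of apoptosis proteins join ubiquitin to the receptor complexes. Birc2, encoding cIAP1, had levels of -1.23, -1.20 and -1.26 with IL-4, against -0.99, -0.73 and -0.57 with PBS. All IL-4 arrays were lower, with a difference of -0.47 ± 0.13 (95% interval -0.76 to -0.18, adjusted p = 0.062, limma), and -0.24 within slide 1. Its neighbour Birc3, encoding cIAP2 and induced by NF-κB in many cells, had levels of -3.11, -3.02 and -3.08 with IL-4, against -3.08, -2.94 and -2.77 with PBS. Birc3 differed by -0.14 ± 0.11 (adjusted p = 0.39, limma) and by 0.01 within slide 1.

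On their brightest probes the 4 TRAF genes differed by between -0.15 and 0.09. Traf3, which restrains the non-canonical pathway, had levels of 1.47, 1.37 and 1.40 with IL-4, against 1.51, 1.66 and 1.51 with PBS, without overlap (-0.15 ± 0.10, adjusted p = 0.32, limma). Traf6, the ligase downstream of the IRAK kinases, had levels of -2.81 to -2.53 with IL-4 and -2.69 to -2.48 with PBS, a difference of -0.13 ± 0.12. Traf2, which acts at TNF receptors, had levels of 0.85 to 0.99 with IL-4 and 0.80 to 1.20 with PBS. Its difference was -0.09 ± 0.13 over all arrays and 0.14 within slide 1. Another probe of Traf2 had the opposite signs, at 0.18 ± 0.17 over all arrays and -0.05 within slide 1. Traf1, an NF-κB target that binds TRAF2, differed by 0.09 ± 0.10, with levels of -2.43 to -2.22 with IL-4 and -2.45 to -2.33 with PBS.

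Of the 4 other target genes on the list, 0 passed. Gadd45b, encoding a stress protein that restrains JNK signalling, had levels of 0.22, 0.09 and 0.14 with IL-4, against 0.46, 0.81 and 0.92 with PBS. All IL-4 arrays were lower, with a difference of -0.58 ± 0.14 (95% interval -0.90 to -0.26, adjusted p = 0.054, limma), and -0.31 within slide 1, where its adjusted p with slide as a block was 0.43. Sod2, the mitochondrial superoxide dismutase, had levels of 3.52, 3.29 and 3.39 with IL-4, against 3.22, 3.22 and 3.12 with PBS. Its difference was 0.22 ± 0.10 (adjusted p = 0.18, limma) and 0.19 within slide 1.

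Icam1, the adhesion molecule for leukocyte integrins, had levels of -2.62, -2.71 and -2.62 with IL-4, against -2.57, -2.60 and -2.44 with PBS. The groups were next to each other without overlap, and the difference was -0.12 ± 0.10 (adjusted p = 0.42, limma). Tnfaip2, a TNF-induced gene of myeloid and endothelial cells, had levels of 1.31, 1.19 and 1.20 with IL-4, against 1.13, 1.5 and 1.57 with PBS. Its difference was -0.17 ± 0.14 over all arrays and 0.10 within slide 1.

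The probes of a gene did not always point the same way, and in the main fit each member was counted by its brightest probe alone. Of the 11 members measured by several probes, 25 in all, 6 had probes of opposite sign over all arrays, and 6 had them within slide 1. Among genes whose probes kept 1 sign, those of Nfkbib differed by 0.05, 0.25 and 0.17, those of Ikbkg by 0.05 and 0.28, and those of Irak1 as given above.

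**Figure D3:**
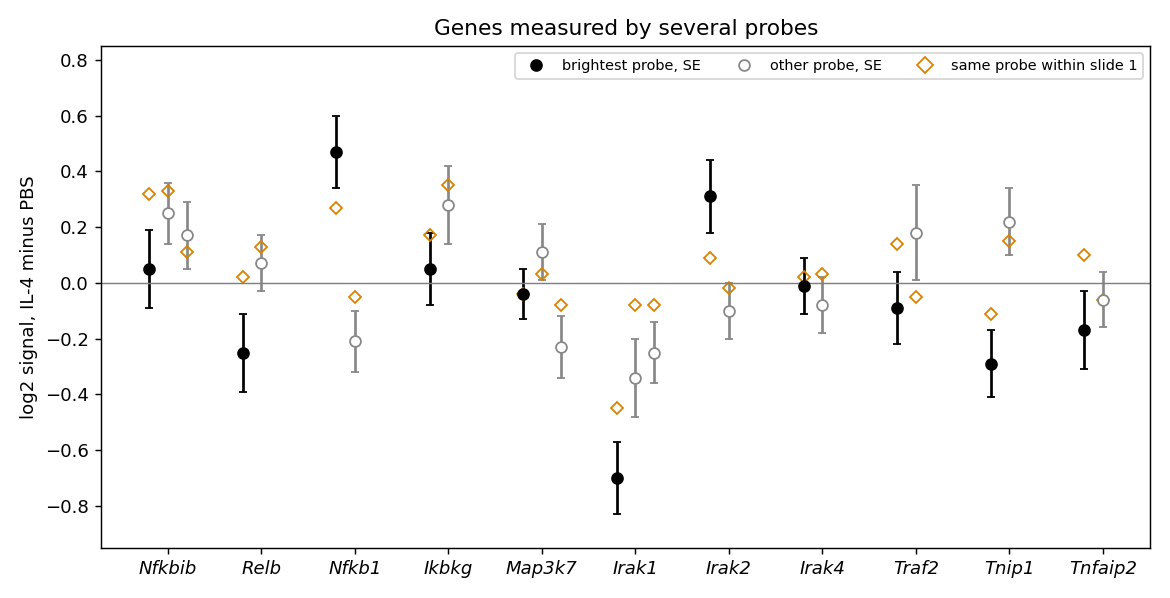
Log2 difference in signal, IL-4 minus PBS, for each probe of the 11 genes with several probes. Filled points are the brightest probe of a gene and open grey points its other probes, with the SE from limma over probes, and open diamonds are the same probe within slide 1. The probes of Nfkb1 (0.47 and -0.21) and of Tnip1 (-0.29 and 0.22) lie on opposite sides of 0, whereas the 3 probes of Irak1 lie below it.

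Members with and without a κB match were also set side by side. The 12 members whose windows hold the consensus had a median difference of -0.16, with 3 positive and 9 negative, and -0.05 within slide 1. For the 19 members whose windows lack it the median was -0.12, with 6 positive and 13 negative, and 0.02 within slide 1. This is a description of the window searched and says nothing of sites outside it.

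Genes around the list were counted in the same fit. These other lists were also chosen with earlier results of these data known, so their shares are descriptions only. Of 51 other components of the pathway, 2 rose, 2 fell and 47 did not pass (7.84% called, against 3.34% of all tested genes), with a median of -0.12. Cd40, a co-stimulatory receptor that signals through TRAF proteins, rose by 0.84 ± 0.13 on the log2 scale (adjusted p = 0.032, limma), and Il1r1, the signalling receptor of interleukin-1, by 0.50 ± 0.11 (adjusted p = 0.049, limma). Malt1, the protease of the CARD and BCL10 complex, and Itch, a ubiquitin ligase that works with A20, fell, at -0.72 ± 0.12 (adjusted p = 0.035, limma) and -0.52 ± 0.11 (adjusted p = 0.046, limma). Their levels were 0.87, 0.96 and 0.87 with IL-4, against 1.39, 1.73 and 1.75 with PBS, for Malt1. For Itch they were 2.08, 2.18 and 2.08 with IL-4, against 2.51, 2.74 and 2.65 with PBS. Nfkbid, encoding the nuclear IκBNS, had the largest difference of this list, with levels of 2.16, 1.97 and 2.07 with IL-4, against 1.70, 1.01 and 0.78 with PBS. It did not pass (0.90 ± 0.22, adjusted p = 0.056, limma), and within slide 1 the difference was 0.36. Tlr2, a receptor of bacterial lipopeptides, differed by -0.62 ± 0.16 without passing (adjusted p = 0.06, limma).

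Of 40 tested target genes outside the list, 5 rose, 1 fell and 34 did not pass (15% called, against 3.34% of all tested genes, 0.803% higher and 2.54% lower), with a median of 0.09 (-0.05 over all tested genes). As the choice of these genes was not blind to the data, the larger share cannot be read as an enrichment. Those that rose were the chemokine genes Ccl7 and Ccl2, the cytokine gene Il6, Ptgs2, which encodes the inducible cyclooxygenase, and Zfp36, whose product destabilizes cytokine mRNAs. Cd83, a surface protein of activated antigen-presenting cells, had a log2 fold change of -0.94 ± 0.19 and fell (adjusted p = 0.045, limma), and Cxcl2, a neutrophil chemokine, differed by 1.1 ± 0.30 without passing (adjusted p = 0.063, limma). Il6 had levels of 0.17, 0.15 and 0.72 with IL-4, against -0.85, -0.99 and -1.44 with PBS, a log2 fold change of 1.44 ± 0.21 (adjusted p = 0.025, limma) with groups far apart, and with slide as a block its adjusted p was 0.21. Zfp36 had levels of 0.83, 0.57 and 0.57 with IL-4, against 0.08, -0.10 and -0.14 with PBS, a log2 fold change of 0.71 ± 0.12 (adjusted p = 0.035, limma) and 0.57 within slide 1. Ptgs2 had levels of 1.76, 1.79 and 1.93 with IL-4, against 0.77, 1.20 and 1.22 with PBS, a log2 fold change of 0.76 ± 0.14 (adjusted p = 0.04, limma) and 1.05 within slide 1. Ccl2 had a log2 fold change of 0.93 ± 0.14 (adjusted p = 0.028, limma). With slide as a block only Ccl7 of these lists was called (2.48 ± 0.17 over all arrays; adjusted p in the block fit 0.039, limma). Whether the target genes differ from the 37 members as a group was not tested.

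**Figure D4:**
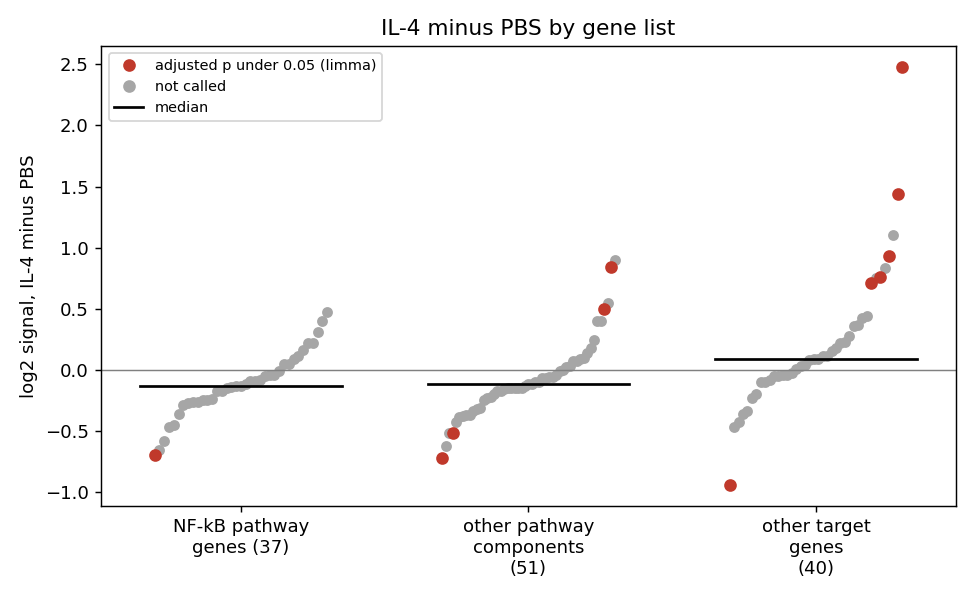
Log2 difference in signal, IL-4 minus PBS, for the 37 NF-κB pathway genes, 51 other components of the pathway and 40 other target genes, each gene a point, sorted within its list. Red points passed the test and black bars are list medians. The 37 genes lie between -0.70 and 0.47, whereas the target genes reach 2.48.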

How the data were processed

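The authors' scanner files give a linear intensity for each spot, and, per the file headers, were made with version 11.0.1.1 of Agilent's Feature Extraction. Their processed signal was not yet on 1 scale between arrays. The authors' deposited table is, from its values, on a log2 scale with the same quartiles in all 6 columns, by a method not given in the sources used here, and served only as an alternative. Control spots and outlier spots were left out, copies of a probe were averaged, and log2 processed signals were set relative to each array's 75th percentile. A probe was tested if it stood well above background throughout 1 or both groups, and accessions were named through a RefSeq table of GRCm38.p6 (69.1% of probes). The comparison was a limma 3.58.1 fit (lmFit, eBayes; R 4.3.3) without a block. Calls needed an adjusted p (Benjamini-Hochberg) under 0.05. The SE is that of this fit. The fit without a block was tested on simulated data with 29759 genes, 100 of them changed per fold size. It found 93% of the 2-fold changes and 99% of the 4-fold ones, with 5.88% false calls. These rates belong to the simulated data and were not measured on these arrays, where part of the PBS group differs in slide. Other scalings, filters, probe rules, blocks and left-out arrays were tried. The normexp alternative (offset 50) used median spot signals in place of the planned mean signals, which the files read do not hold. The listed targets Mmp9 and Bcl2a1a were not tested. The number of arrays limits the precision. The members and the gene lists were chosen with earlier results of these data known. All members are named, and array values are given for core pathway genes and for members with an unadjusted p under 0.05 or a call under an alternative, and by range or in full for the rest. From the other lists, called genes and the 4 with the largest differences are named.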

Additional observations from a re-analysis of the deposited data

How the results depend on the processing

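The counts of calls varied widely with the processing, and the cause was not tested. Sizes of differences moved as well, such as the median of the members, -0.13 in the main fit and -0.01 with slide as a block. Genes called higher and lower with IL-4 numbered 811 and 1787 with quantile normalization, 502 and 1167 when scaled to the median, 2016 and 2015 with normexp and the 75th percentile, 967 and 2092 with normexp and quantiles, and 663 and 1617 in the authors' table. They numbered 5 and 10 with no filter on dim probes, 1606 and 1799 when a probe had to be detected on all 6 arrays, 116 and 485 with the mean of a gene's probes, 2033 and 2102 with an intensity trend in eBayes, 10 and 9 with slide as a block, and 1 and 0 on slide 1 alone. Leaving out 1 array gave 0 to 5821 higher and 0 to 6842 lower, the highest without PBS replicate 1. The genes tested numbered 29759 in the main fit, 32451 with no filter on dim probes and 28159 with the filter on all 6 arrays.

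Of the 37 members, 1 was called higher with either normexp setting or the filter on all 6 arrays, and 2 with the intensity trend. Members called lower numbered 4 with quantile normalization and in the authors' table, 2 when scaled to the median, 5 with either normexp setting, the filter on all 6 arrays or the trend, and 0 with no filter, the mean of probes, slide as a block or slide 1 alone. Leaving out 1 array gave 0 to 3 higher and 0 to 13 lower. Whether any of these counts differs from the share called among all genes in the same setting was not tested. Irak1 was negative under all 19 alternatives (-0.83 to -0.43) and called under 10 of them, with adjusted p of 0.00082 to 0.34 (limma). The median of the members was -0.01 with slide as a block and on slide 1 alone.

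Over the other components and targets together, calls higher numbered 11 with quantile normalization or normexp and quantiles, 13 with normexp and the 75th percentile, 1 with no filter or slide as a block, 12 with the filter on all 6 arrays, 14 with the trend and 0 on slide 1 alone. Calls lower numbered 6 and 7 with the normexp settings, 0 with no filter, slide as a block or slide 1 alone, 5 with the filter on all 6 arrays, 1 with the mean of probes and 8 with the trend. Leaving out 1 array gave 0 to 17 higher and 0 to 18 lower.

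Signs turned for 12 members, none of them called in either fit. With slide as a block and on slide 1 alone these were Relb (0.02), Ticam1 (0.11), Irak3 (0.06), Irak4 (0.02), Traf2 (0.14), Birc3 (0.01), Tnfaip3 (0.13) and Tnfaip2 (0.10). Ikbkg was -0.01 with normexp and quantiles, Map3k7 was 0.03 and 0.04 with the normexp settings and 0.00 in the authors' table, Irak4 was 0.01 with the percentile taken over the probes detected on every array, and Traf2 was 0.04 with the mean of probes. Leaving out 1 array gave -0.08 to 0.12 for Nfkbib, -0.04 to 0.14 for Ikbkg, -0.25 to 0.09 for Tab1, -0.11 to 0.01 for Ticam1, -0.04 to 0.04 for Irak4 and -0.20 to 0.02 for Tnfaip3.

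The labels number the replicates 1 to 3 in each group. Same-numbered arrays had correlations of their deviations of 0.08, -0.02 and 0.30, so the numbers were not taken to pair the samples, and IL-4 replicate 2 correlated best with PBS replicate 1 (0.04). With the replicate block 1817 genes were called higher and 1969 lower, 1 member higher and 3 lower, and 12 genes of the other lists higher.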

Other observations

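A few genes counted in the lists above, but not described there, are given by value here. Of the 3 genes of the linear ubiquitin ligase, which joins chains to NEMO, Sharpin had log2 signals relative to the 75th percentile of 1.66, 1.70 and 1.74 with IL-4, against 1.92, 2.46 and 2.27 with PBS. Its difference was -0.52 ± 0.15 (SE, adjusted p = 0.065, limma). Rnf31, the catalytic subunit, differed by 0.40 ± 0.14 (adjusted p = 0.098, limma), and Rbck1 by -0.10 ± 0.10. Within slide 1 the differences were -0.22 for Sharpin, 0.12 for Rnf31 and -0.03 for Rbck1.

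The inflammatory cytokine genes Tnf and Il1b did not pass, at 0.09 ± 0.13 for Tnf (adjusted p = 0.64, limma) and 0.09 ± 0.16 for Il1b (adjusted p = 0.73, limma). Nos2, the inducible nitric oxide synthase, had levels of -2.22, -2.45 and -2.32 with IL-4, against -2.56, -3.68 and -3.23 with PBS, and did not pass (0.83 ± 0.25, adjusted p = 0.072, limma). Within slide 1 its difference was 0.24. These genes were chosen after their values were seen.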
